A study of Homo sapiens with 6 samples.

Results

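The sites described here are 584 regions of the human genome that were called for the transcription factor KLF5 in one bronchial epithelial line and for the transcription factor CEBPB in another. They are the KLF5 peaks of 16HBE14o- cells that shared no base with a KLF5 peak of Calu-3 cells and shared at least 1 bp with a CEBPB peak of Calu-3 cells. Of the 3262 KLF5 peaks of 16HBE14o-, 2894 (88.7%) had no Calu-3 KLF5 peak over them, and 584 of those 2894 (20.2%) had a Calu-3 CEBPB peak. A CEBPB peak was more frequent among the 368 peaks that did have a Calu-3 KLF5 peak over them, at 148 of 368. The sites were chosen by both overlaps, that is by which peaks the authors called in each list, so these counts are a description and not a finding. The remaining 2310 KLF5 peaks without a Calu-3 KLF5 peak had no CEBPB peak and serve below as the nearest comparison.

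The study measured binding by ChIP-seq, in which DNA bound by a protein is precipitated with an antibody and sequenced. Its 6 samples formed 3 groups of 2, namely KLF5 in 16HBE14o-, KLF5 in Calu-3 and CEBPB in Calu-3. Cells of both lines were untreated and kept in DMEM with 10% FBS. 16HBE14o- is an immortalised bronchial epithelial line, and Calu-3 comes from an adenocarcinoma of the lung. Both KLF5 samples of 16HBE14o- were precipitated with the antibody Santa Cruz sc-398470, as was the second KLF5 sample of Calu-3. The first one was made with a rabbit anti-KLF5 antibody instead. CEBPB was precipitated with Santa Cruz sc-7962. A missing Calu-3 KLF5 peak therefore cannot be told apart from the change of antibody in 1 of the 2 Calu-3 samples. The Calu-3 KLF5 list was also the shorter one, at 1510 peaks against 3262, which limits how many 16HBE14o- peaks it can match. The CEBPB list held 69386 peaks. CEBPB was profiled in Calu-3 alone among the samples analysed here, so a site of this class joins KLF5 of one line with CEBPB of the other and does not show both proteins on the same DNA. Peak lists hold no expression values, so neither line could be checked against marker genes.

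KLF5 is a Krüppel-like factor whose zinc fingers bind GC-rich and CACCC-type sequences, and it is known for its part in the proliferation and identity of epithelia. CEBPB is a basic leucine zipper protein that binds DNA as a dimer and is known for its part in inflammatory and acute phase gene expression. Many transcription factors bind at the same open promoters and enhancers, which differ from one cell line to another.

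The authors made 1 peak list per group from both of its samples, so no value below has an error between samples and no test across samples could be made. Shares are given with exact (Clopper-Pearson) 95% intervals, and differences of shares with Newcombe intervals. Both cover counting error only, treat peaks as independent of each other and are not a test. Each peak carries a signal set by the authors, whose normalization is not stated, and ranks are given as percentiles within one list, with 100 for the highest. Sequencing depth is unknown, so a missing peak does not show that the protein was absent. Positions are on hg19, and sequences and genes at these positions were not analysed here.

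KLF5 signal at the 584 sites was that of an average peak of the 16HBE14o- list. Signal ran from 8.66 to 135.1 with a median of 30.02 (95% interval 28.98 to 30.95), against a median of 30.1 for the whole list. Of the 584 sites, 286 (49.0%, 44.8 to 53.1) were in the upper 50% of the list by signal, where the whole list has 50% by construction. The highest deposited score, 1000, was given to 197 sites (33.7%, 29.9 to 37.7), compared with 33.2% of the whole list. 467 sites (80.0%, 76.5 to 83.1) had KLF5 q-values up to 0.05, which the list as a whole reached at 78.9% of peaks. All of these shares were close to the background of the list.

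The 2310 sites without CEBPB had nearly the same KLF5 signal. Their median signal was 29.3 (28.9 to 29.7), and 46.1% (44.0 to 48.1) were in the upper 50% of the list, which left a difference of 2.91 points (-1.61 to 7.44). In the upper 10% by signal, the sites with and without CEBPB had shares of 7.88% and 7.75%, a difference of 0.128 points (-2.12 to 2.80). At the weak end the sites with CEBPB were fewer. The lower 10% by signal held 8.22% of the sites with CEBPB and 11.3% of those without (difference -3.12 points, -5.51 to -0.328). The highest score was more frequent with CEBPB, by 4.95 points (0.779 to 9.27). These were among 3 of 12 shares compared whose interval left out 0, with no adjustment for the number compared. Of the 48 sites with CEBPB in the lower 10%, 29 were the weaker entry of an overlapping pair, and the intervals count such entries separately.

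Sites at which both lines had KLF5 stood apart from both of these classes. The 148 16HBE14o- peaks with both a Calu-3 KLF5 peak and a CEBPB peak had a median KLF5 signal of 36.6 (34.8 to 41.2), and 78.4% (70.9 to 84.7) of them were in the upper 50%. The 584 sites were lower by 29.4 points on that share (difference -29.4, -36.5 to -21.1). Shared sites without CEBPB had a median signal of 37.0 (34.6 to 40.1), and in the cumulative plot of KLF5 signal the curves pair by whether Calu-3 had KLF5 and not by CEBPB.

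**Figure D1:**
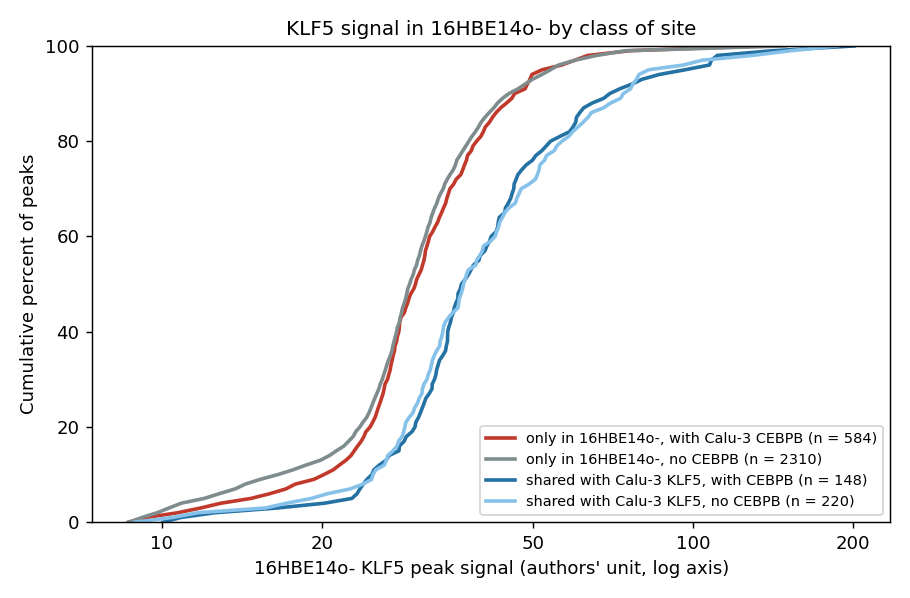
Cumulative percent of 16HBE14o- KLF5 peaks (vertical axis) against the authors' KLF5 signal (horizontal log axis, no stated unit) for 4 classes of site, 1 line each. The curve of the 584 sites with Calu-3 CEBPB (median 30.02) lies beside that of the 2310 sites without (median 29.3), and both lie to the left of the shared sites (medians 36.6 and 37.0).

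The share of KLF5 sites with CEBPB was lowest among the weakest KLF5 peaks. When the 2894 peaks without Calu-3 KLF5 were divided by signal into 4 classes of 25% each, CEBPB was found at 126 of 724 peaks in the lowest class (17.4%, 14.7 to 20.4) and at 153 of 723 in the next (21.2%, 18.2 to 24.3). It was found at 142 of 723 in the third (19.6%, 16.8 to 22.7) and at 163 of 724 in the highest (22.5%, 19.5 to 25.7). The highest class exceeded the lowest by 5.11 points (0.992 to 9.21), while the intervals of neighbouring classes overlapped. Among the strongest KLF5 peaks of this kind, those in the upper 10% of the list, 46 of 225 had CEBPB (20.4%, 15.4 to 26.3), as against 48 of 310 in the lower 10% (15.5%, 11.6 to 20).

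The 10 sites of highest KLF5 signal illustrate how loosely the signals of both proteins were paired. Of these 10, 6 lay on chromosome 20, which held 13.5% of the 584 sites and 14.1% of the whole 16HBE14o- list. Whether the strongest peaks of the other classes also lay there was not examined. The highest of the 10, on chromosome 20 at 52364830 to 52364920, had a KLF5 signal of 135.1 and a CEBPB peak of signal 7.14 at percentile 94.0. It was also the narrowest site, at 91 bp, the other 583 all being 344 bp wide. The second, on chromosome 20 at 61002517 to 61002860, had a KLF5 signal of 102.4, but its CEBPB peak (signal 2.55) was at percentile 9.79. The third, on chromosome 20 at 32319817 to 32320160, had a KLF5 signal of 88.2 and a CEBPB peak at percentile 37.6.

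Further down this ranking, CEBPB strength again varied from site to site. A site on chromosome 5 at 2780475 to 2780818 had a KLF5 signal of 83.9 and a CEBPB percentile of 59.2. One on chromosome 14 at 104583218 to 104583561 had 82.8 and a CEBPB percentile of 64.4. The site on chromosome 9 at 114792337 to 114792680 combined a KLF5 signal of 78.0 with a CEBPB signal of 11.02 at percentile 97.7. It was thus strong in both lists, like the first. Chromosome 20 held the next 2 sites, at 61855893 to 61856236 (KLF5 signal 75.6, CEBPB percentile 54.7) and at 43976970 to 43977313 (73.0 and 79.9). The last 2 were on chromosome 11 at 66610714 to 66611057 (71.2 and 85.02) and on chromosome 20 at 60640959 to 60641302 (64.9 and 37.9). In all, 2 of the 10 had a CEBPB peak in the upper 10% of its list and 3 had one in the lower 50%. All 10 CEBPB peaks nonetheless reached a q-value of 0.05.

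Across all 584 sites, KLF5 signal in 16HBE14o- and the signal of the strongest CEBPB peak in Calu-3 were almost unrelated (Spearman rho = 0.059, Pearson r = 0.066 on the log2 scale, n = 584 sites that are not independent replicates). Both signals were in the upper 50% of their lists at 176 sites (30.1%) and both in the lower 50% at 124 (21.2%). KLF5 alone was in the upper 50% at 110 sites (18.8%) and CEBPB alone at 174 (29.8%). The upper 10% by KLF5 signal held 46 of the sites and the upper 10% by CEBPB signal 124, and 10 sites (1.71%, 0.824 to 3.13) were in both.

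**Figure D2:**
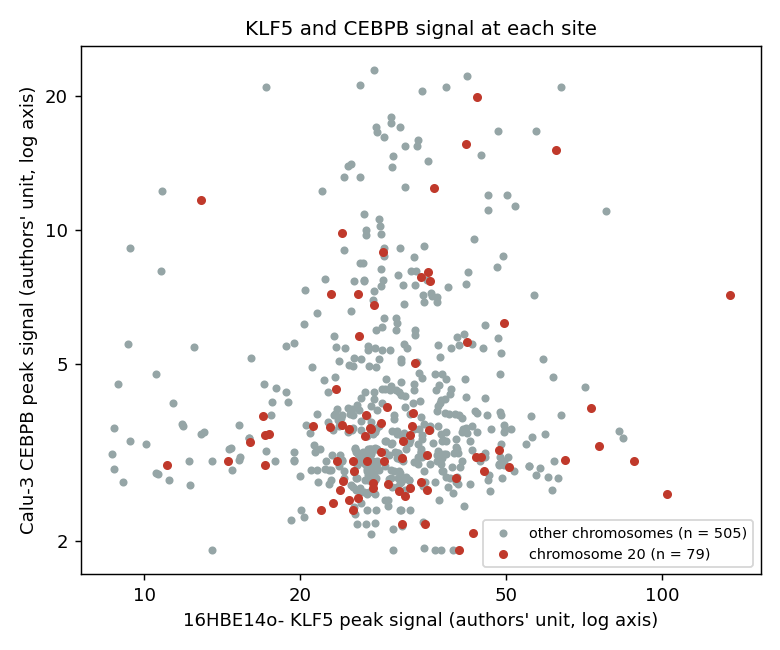
KLF5 signal in 16HBE14o- (horizontal log axis) against the signal of the strongest overlapping CEBPB peak in Calu-3 (vertical log axis), both in the authors' unstated unit, 1 point for each of the 584 sites, with the 79 of chromosome 20 in red. The cloud has no slope (Spearman rho = 0.059), and the red point at the far right is the site of KLF5 signal 135.1.

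The sites strongest in both lists at once, ranked by the mean of both percentiles, were spread over 8 chromosomes. The highest lay on chromosome 10 at 81709161 to 81709504, with a KLF5 signal of 63.7 and a CEBPB signal of 20.9. Both values were in the top part of their lists, at percentiles 96.5 and 99.7. The site on chromosome 9 named above came second. Next was a site on chromosome 20 at 48838117 to 48838460, with a KLF5 signal of 62.4 and a CEBPB signal of 15.2, followed by one on chromosome X at 7050470 to 7050813, with 57.1 and 16.7. The highest KLF5 site of all, on chromosome 20 at 52364830, came after these.

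The other 5 of this ranking had KLF5 signals of 48.2 to 56.7. One lay on chromosome 15 at 74632435 to 74632778, with a CEBPB signal of 11.3. Chromosome 19 held another 2, at 2528878 to 2529221 (CEBPB signal 12.02) and at 4800825 to 4801168 (7.14). The remaining 2 were on chromosome 5 at 173229714 to 173230057, with a CEBPB signal of 16.7, and on chromosome 22 at 46034901 to 46035244, with 8.73. At 7 of the 10 sites the CEBPB summit, the base of highest signal, was within 100 bp of the KLF5 summit, as it was at 59.6% of all 584 sites. The nearest KLF5 peak of Calu-3 was between 11.4 and 34251 kb away from these 10 sites, and at 3 of them it was within 20 kb. The share within 20 kb was not computed for all 584 sites, of which 6.16% had such a peak within 10 kb and 28.6% within 100 kb.

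The 601 overlaps at the 584 sites involved 567 CEBPB peaks. CEBPB was stronger there than at an average CEBPB peak and weaker than at KLF5 sites of Calu-3. The median CEBPB signal was 3.47 (3.30 to 3.57), the median percentile 60.5 (55.6 to 65.3) and the median width 195 bp (186 to 207). The 68162 CEBPB peaks that overlapped no KLF5 peak had a median signal of 3.17, a median percentile of 47.7 and a median width of 150 bp. A wider CEBPB peak has more room to meet a KLF5 peak, and its part in this difference was not tested.

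The upper 50% of the CEBPB list held 333 of the 567 peaks (58.7%, 54.6 to 62.8), against 49.1% of the whole list. The share is under 50% because signals are tied at the middle of that list. The upper 10% held 117 (20.6%, 17.4 to 24.2), against 10% of the list. The upper 1% held 20 (3.53%, 2.17 to 5.40). A CEBPB q-value up to 0.05 was carried by 358 (63.1%, 59.02 to 67.1), against 46.3% of the list, and by 45.7% of the CEBPB peaks without KLF5, a difference of 17.4 points (13.4 to 21.3). Weak CEBPB peaks were still common, since 209 of the 567 did not reach that q-value.

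At KLF5 sites called only in Calu-3, the 511 CEBPB peaks had a median signal of 10.2 (9.13 to 10.8), a median percentile of 97.3 and a median width of 274 bp. Of these, 88.8% were in the upper 50% of the CEBPB list and 90.8% (88.0 to 93.2) reached a q-value of 0.05, 27.7 points more than at the 584 sites (difference -27.7, -32.3 to -22.9). In the upper 1% of the list, CEBPB peaks of the 584 sites were rarer by 23.5 points (difference -23.5, -27.7 to -19.4). The 145 CEBPB peaks at KLF5 sites shared by both lines lay between, with a median percentile of 85.1 (78.7 to 90.4), 79.3% of them with q-values up to 0.05 and 16.6% in the upper 1%. Calu-3 CEBPB signal was thus highest at the KLF5 sites of Calu-3 alone, lower at shared sites and lowest of the 3 classes at the 584 sites.

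**Figure D3:**
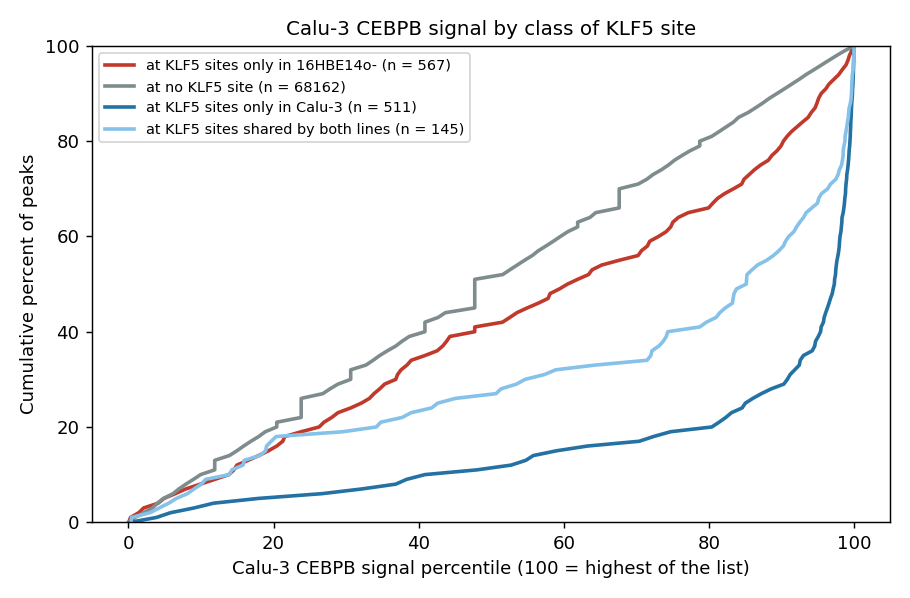
Cumulative percent of Calu-3 CEBPB peaks (vertical axis) against their signal percentile in the CEBPB list (horizontal axis, 100 for the highest), 1 line for each of 4 classes by the KLF5 peaks they overlap; steps come from tied signals. The curve at the 584 sites (median percentile 60.5) lies near that of CEBPB peaks without KLF5 (47.7) and far from that of KLF5 sites only in Calu-3 (97.3).

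The 5 sites of highest CEBPB signal had KLF5 signals from low to high. On chromosome 3 at 101568189 to 101568532 a CEBPB peak of signal 22.9 met a KLF5 peak of signal 27.8, at percentile 38.0. On chromosome 17 at 77813541 to 77813884 the signals were 22.2 for CEBPB and 42.0 for KLF5. On chromosome 16 at 8972349 to 8972692 a CEBPB signal of 21.2 stood over a KLF5 signal of 26.1, at percentile 27.9. The remaining 2 were overlapping KLF5 entries on chromosome X, at 24072585 to 24072928 and at 24072785 to 24073128, that met the same CEBPB peak of signal 20.9. Their KLF5 signals were 38.4 and 17.2, so CEBPB strength was counted there against both a strong and a weak entry of one locus.

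Such double entries were found throughout the 16HBE14o- list. Another 16HBE14o- KLF5 peak overlapped 15.1% (12.3 to 18.2) of the 584, 17.0% (15.5 to 18.6) of the sites without CEBPB and 15.8% of the whole list. Of the 584 sites, 70 overlapped another of the 584, in 35 pairs whose summits lay 199 to 309 bp apart with a median of 202 bp. In 33 of the 35 pairs the strongest CEBPB peak was the same for both entries. The stronger entries had a median KLF5 signal of 28.7 and the weaker ones 12.3, and 29 of the 35 weaker entries were in the lower 10% of the list by signal. A q-value up to 0.05 was reached by 3 of the weaker and 24 of the stronger entries. These 29 made up most of the 48 sites in the lower 10%, so the weak tail of the class consists largely of second entries beside a stronger one. Counted as stretches that do not overlap, the 584 sites were 549 loci. No site overlapped a 16HBE14o- KLF5 peak that was itself shared with Calu-3 (0 of 584). Few could have done so, since only 88 of the 584 overlapped any other 16HBE14o- KLF5 peak. Most of these met another of the 584 (70 sites), which by the rule is not shared, so the 0 is largely set by the choice of sites.

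Within a site, KLF5 and CEBPB summits lay close together and on either side alike. The closest CEBPB summit was at a median distance of 80.5 bp (70 to 88) from the KLF5 summit. It was within 100 bp at 348 sites (59.6%, 55.5 to 63.6), within 50 bp at 206 (35.3%) and within 25 bp at 113 (19.3%). The overlap rule itself keeps summits near each other, so closeness is in part set by the choice of sites. The summit of the strongest CEBPB peak was toward lower positions at 308 sites, toward higher positions at 273 and on the same base at 3. Its median offset was -8 bp (-19 to 3). At 583 of the 584 sites the deposited KLF5 summit was the exact centre of a 344 bp interval, and the resolution of these distances is limited by that fixed width.

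The share of sites with a close CEBPB summit was highest for the strongest CEBPB peaks, with intervals too wide to order the classes. The strongest CEBPB summit was within 100 bp at 85 of the 124 sites with a CEBPB peak in the upper 10% of its list (68.5%, 59.6 to 76.6). The share was 58 of 96 for percentiles 75 to 90 (60.4%, 49.9 to 70.3) and 71 of 130 for percentiles 50 to 75 (54.6%, 45.7 to 63.4). It was 74 of 132 (56.1%, 47.2 to 64.7) and 55 of 102 (53.9%, 43.8 to 63.8) for percentiles 25 to 50 and below 25. The intervals of all 5 classes overlapped, and double entries that met the same CEBPB peak were counted separately.

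**Figure D4:**
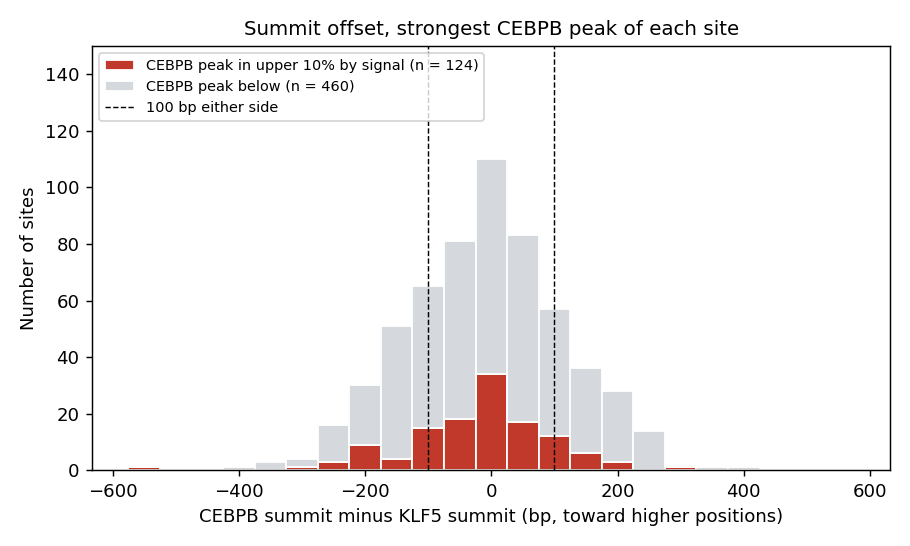
Number of sites (vertical axis) by the position of the strongest CEBPB summit relative to the KLF5 summit in bp (horizontal axis, bins of 50 bp), with the 124 sites whose CEBPB peak is in the upper 10% by signal in red and the other 460 in grey, stacked; dashed lines mark 100 bp either side. Both sets peak at the KLF5 summit and fall off on both sides (median offset of all sites -8 bp).

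The sites were chosen to share no base with Calu-3 KLF5, which in part sets how near such peaks can be. The nearest Calu-3 KLF5 peak lay at a median distance of 320 kb (265 to 375). It was within 1 kb at 6 sites (1.03%), within 10 kb at 36 (6.16%, 4.35 to 8.43) and within 100 kb at 167 (28.6%, 24.96 to 32.4). The 2310 sites without CEBPB had a median distance of 349 kb (311 to 387), with 1.65% within 1 kb, 6.75% within 10 kb and 27.4% within 100 kb, and each difference had an interval that included 0. These intervals cover counting error only and count double entries of one locus separately. They are therefore no test of whether the distance to Calu-3 KLF5 differed between KLF5 sites with and without CEBPB.

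The surrounding CEBPB landscape differed little as well. At least 1 further CEBPB peak within 10 kb, not overlapping the site, was found at 318 of the 584 sites (54.5%, 50.3 to 58.5) and at 50.4% (48.3 to 52.4) of the sites without CEBPB, a difference of 4.06 points (-0.475 to 8.55). Of all CEBPB peaks, 49.9% had another within 10 kb. The 2310 sites without CEBPB lay at a median of 9.93 kb (9.09 to 10.6) from the nearest CEBPB peak. Other KLF5 peaks of 16HBE14o- were less frequent near the 584 sites. They lay within 12500 bp of 30.7% (26.9 to 34.6) of the sites with CEBPB and of 37.2% (35.3 to 39.2) of those without, a difference of -6.58 points (-10.7 to -2.26). These shares include overlapping entries, which 15.1% of the sites with CEBPB and 17.0% of those without had.

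Groups made up of the 584 sites alone were few, and this count leaves out most 16HBE14o- KLF5 peaks. With 12500 bp as the largest gap, 477 of the 584 had no other of the 584 near them, 94 formed 47 pairs, and 4 groups held 3 or more. With all 16HBE14o- KLF5 peaks counted, 179 of the 584 (30.7%) had another within that gap. The share was 37.2% for the sites without CEBPB and 35.9% for the whole list. Overlapping entries were counted separately here, and 70 of the 107 sites in pairs or groups overlapped another of the 584. With overlapping entries merged, 40 of 549 (7.29%) had another within 12500 bp. The group of 4 spanned 13.0 kb on chromosome 20 from 52351939 to 52364920 and included the site of highest KLF5 signal. Its other 3 entries, starting at 52351939, 52352145 and 52352796, had KLF5 signals of 25.9, 22.99 and 24.2, so 1 entry stood far above the rest. CEBPB signals in that group ran from 2.73 to 7.20 over 3 peaks.

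The other groups held 3 sites each. On chromosome 20 from 32319817 to 32322137, KLF5 signals of 88.2, 14.5 and 27.5 stood beside CEBPB signals of 3.03 to 3.59. On chromosome 1 from 228290901 to 228297381, KLF5 signals were 26.7, 32.7 and 10.8, and the last 2 entries overlapped and met one CEBPB peak of signal 8.08. On chromosome 6 from 108879588 to 108882292, 3 separate KLF5 peaks with signals of 27.4, 24.1 and 32.7 met 3 separate CEBPB peaks with signals of 3.04 to 3.86. That last group was the one of the 4 in which no entries overlapped.

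Sites of this class lay on chromosomes 1 to 22 and X. Chromosome 20 held 79 (13.5%, 10.9 to 16.6), and it held 14.5% of the KLF5 sites without CEBPB and 2.40% of the CEBPB list. CEBPB was found at 79 of its 413 KLF5 sites (19.1%, 15.4 to 23.3), near the 20.2% of all chromosomes. Beyond 25 Mb on chromosome 20 the share was 75 of 398 (18.8%, 15.1 to 23.04). Conversely, chromosome 3 held 10.7% of the CEBPB list, and 17 of its 95 KLF5 sites (17.9%, 10.8 to 27.1) had CEBPB. Between 85 and 90 Mb of that chromosome, 3 of 43 did (6.98%, 1.46 to 19.1), and beyond 150 Mb 6 of 18 (33.3%, 13.3 to 59.0).

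Across 23 chromosomes, the share of KLF5 sites with CEBPB ran from 10.4% to 31.8% and was hardly related to a chromosome's share of the CEBPB list (Spearman rho = 0.074, a description over 23 chromosomes that differ in size and in their number of sites). The lowest was chromosome 11, with 23 of 221 (10.4%, 6.71 to 15.2), and the highest was chromosome 5, with 28 of 88 (31.8%, 22.3 to 42.6). These 2 were the chromosomes whose interval left out the overall share, 1 below and 1 above, with no adjustment for the 23 chromosomes compared. In bins of 5 Mb, picked out after their values were seen, the most sites lay on chromosome 20 from 45 to 50 Mb (17 of 90 KLF5 sites, 18.9%) and from 60 to 65 Mb (16 of 107, 15.0%). Chromosome 11 from 65 to 70 Mb followed with 13 of 78 (16.7%).

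**Figure D5:**
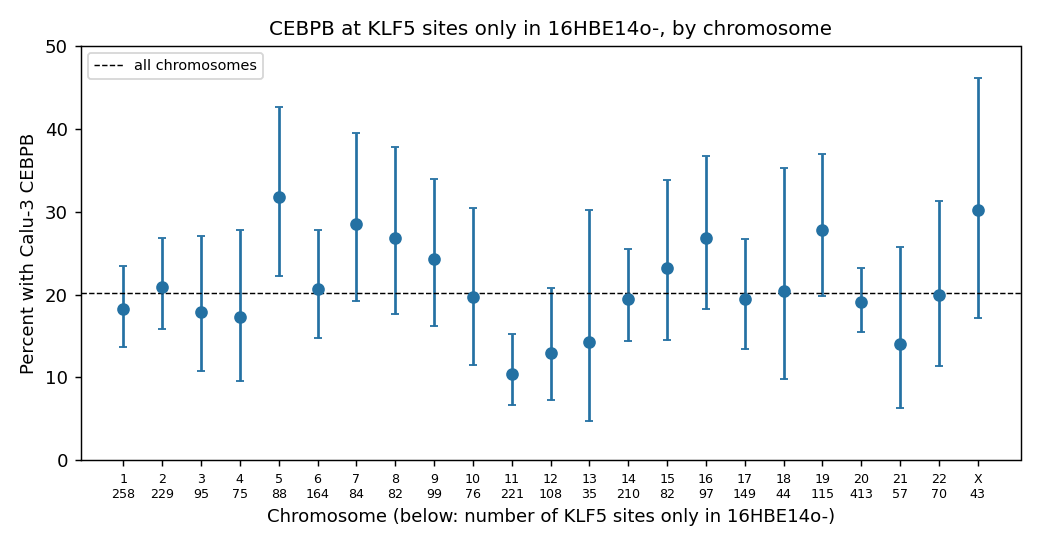
Percent of KLF5 sites called only in 16HBE14o- that had a Calu-3 CEBPB peak (vertical axis), by chromosome (horizontal axis, with the number of such KLF5 sites), points with exact 95% intervals for counting error and a dashed line at the overall 20.2%. Chromosome 11 (10.4%) lies below the line and chromosome 5 (31.8%) above it with their whole intervals, which are not adjusted for the 23 chromosomes compared.

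Few sites lay near the limits of the overlap rule. Just inside it for CEBPB, sites on chromosome 1 at 46016488 to 46016831 and on chromosome 7 at 56032304 to 56032647 shared 1 bp with their CEBPB peak, and their KLF5 signals were 30.4 and 15.2. Sites on chromosome 2 at 242641186, chromosome 9 at 71735592 and chromosome 19 at 41816147 shared 4, 6 and 7 bp. Fewer than 25 bp were shared at 17 of the 584 sites, and the median overlap was 162 bp (154 to 169), so most sites were far from this limit. Just outside it, KLF5 peaks on chromosome 15 at 20545815 (signal 60.5), chromosome 19 at 18391092 (27.7) and chromosome 4 at 190626296 (33.3) adjoined a CEBPB peak without sharing a base. Peaks on chromosome 8 at 127570095 and chromosome 14 at 100070510 had CEBPB 3 and 4 bp away. A CEBPB peak lay within 100 bp of 51 and within 1 kb of 297 of the 2310 sites counted as having none.

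Toward Calu-3 KLF5, the closest site was on chromosome 3 at 129612397 to 129612740, with a Calu-3 KLF5 peak 35 bp away. Next were chromosome 16 at 2908534 to 2908877 (189 bp), chromosome 1 at 152020769 to 152021112 (316 bp) with its overlapping entry at 152020968 (515 bp), and chromosome 8 at 144820701 to 144821044 (328 bp). KLF5 signals of these 5 ran from 13.05 to 41.1. On the other side of the limit, KLF5 peaks with CEBPB were left out of the class for sharing 32 bp with a Calu-3 KLF5 peak on chromosome 19 at 29590103, 42 bp on chromosome 15 at 92485964, 47 bp on chromosome 14 at 90910391, 50 bp on chromosome 11 at 65686384 and 98 bp on chromosome 14 at 64194691. Their KLF5 signals, from 29.9 to 46.1, overlapped with those just inside.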

How the data were processed

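The authors deposited 1 peak list per group on hg19, made from both samples of the group per the series' design text, and named as peaks of the irreproducible discovery rate procedure per the file headers. Aligner, peak caller, filters and control library are not given in the sources used here. Peak signal and score columns are the authors' values of unstated normalization. The lists were not of one kind. Both KLF5 lists had scores of 540 to 1000 and nearly all peaks of 1 width. Of their peaks, 78.9% (16HBE14o-) and 86.6% (Calu-3) had q-values up to 0.05. The CEBPB list had scores of 20 to 2809, widths of 125 to 2118 bp and 46.3% of peaks at such q-values. The authors' −log10 q-values and −log10 p-values were deposited with the CEBPB list, and −log10 q-values alone were used from the KLF5 lists. The position of each summit is the deposited offset from the peak start. Sites, comparison classes and alternatives were chosen with earlier results of these data known.

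Sharing 1 bp or more counted as overlap. Entries of a list that overlapped each other stayed separate. Where a site met more than 1 CEBPB peak, the one of highest signal gave its CEBPB value. Medians have exact order-statistic intervals of at least 95%. Peaks are not replicates, and with 1 list per group no test was made. Regions named are the 10 of highest KLF5 signal, the 10 of highest mean percentile, the 5 of highest CEBPB signal, groups of 3 or more within 12500 bp and the 5 nearest each side of each overlap limit. Planned analyses of gene starts, gene lists and motifs were not run, since hg19 sequence and annotation were not used here. Python 3.11.15, numpy 2.4.6, pandas 2.3.3 and scipy 1.17.1 were used. The overlap code was tested on simulated data and gave the same pairs as bedtools 2.31.1. Alternatives varied the overlap rule, filters, widths, list lengths, merging and chromosome 20.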

Additional observations from a re-analysis of the deposited data

How the results depend on the processing

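No paired analysis was possible because each list pools both samples of its group, and for the same reason no sample could be left out. Of 96 values recomputed for 10 results under 10 alternatives, 61 stayed within the 95% interval of the reported value (or 1.5 times, for the number of sites) and 35 did not. A measure was not recomputed where the alternative filters on that same measure, and alternatives for gene starts and motifs were not run. With all lists cut to 1510 peaks by signal, only 20 sites were left (1.61% with CEBPB). By construction 100% of these were in the upper 50% of both lists by signal. A CEBPB q-value of 0.05 or less was carried by 100%, 70% had the highest KLF5 score, 65% had summits within 100 bp, 0% had Calu-3 KLF5 within 10 kb or another site within 12500 bp, and 20% were on chromosome 20. Requiring summits within 100 bp left 348 sites (12.02% with CEBPB), 54.3% of them in the upper 50% by KLF5 signal and 3.16% near another site. Overlap of at least 50% of the shorter peak gave 17.0% with CEBPB, 70.5% with close summits and 13.0% near another site. CEBPB peaks of q 0.05 or less left 379 sites (13.1%), 87.4% of the CEBPB peaks in the upper 50% and 15.04% near another site. KLF5 peaks of q 0.05 or less gave 61.2% in the upper 50% by KLF5 signal, 40.5% with the highest score, 63.8% with close summits and 5.996% near another site. All 286 sites of the upper 50% passed that filter, so this share rose only because lower peaks were dropped. Filters by q-value or score kept the ranks of the full list and go with signal, so they move shares of the upper 50% in part by construction. KLF5 peaks of the highest score left 197 sites (22.9%), 92.9% in the upper 50%, 69.7% of the CEBPB peaks at q 0.05 or less, 65.5% with close summits and 14.2% near another site. Peaks set to 200 bp gave 17.8% with CEBPB and 67.1% with close summits, where the count with close summits stayed at 348 and the total fell to 519. Merged entries left 7.29% near another site and leaving out chromosome 20 left 14.7%, against 18.3% as reported. The share near another site moved under 8 of its 10 alternatives. Of the 107 sites near another as reported, 70 overlapped another of the 584, so the measure counts many double entries of one locus. What moved the share under each alternative was not tested. Depth is unknown and limits every absence.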
